A study of Mus musculus with 23 samples.

Results

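Colonies grown from tumour macrophages were compared with the macrophages themselves in the HPV-negative MEER model of head and neck cancer. The comparison uses 6 of the 23 RNA sequencing libraries of the series, chosen by their labels, of which 3 are HPV-negative MEER colonies and 3 are HPV-negative MEER macrophages. MEER is a mouse oropharyngeal epithelial tumour line made with an activated Ras, used here in the form without papillomavirus oncogenes, and all 6 libraries are labelled C57/Bl6. The macrophages are the CD45+CD11b+Gr1-F4/80hi cells of tumours grown under the skin, each library pools 3 to 4 mice, and the libraries carry the numbers 1, 2 and 4. The labels describe the colonies as macrophage progenitor colonies, obtained by keeping such sorted macrophages for 9 days in a haematopoietic stem cell medium. They do not tie a colony library to a macrophage library and do not give the number of mice behind it. Libraries of the cultured HPV-negative MEER tumour line (3), of SCCVII colonies (2) and of SCCVII macrophages (3), a squamous carcinoma model in C3H/HeJ mice, are used beside them. Macrophages sorted in the same way from HPV-positive MEER tumours of C57/Bl6 mice (3), the form of the line with papillomavirus oncogenes, serve only to choose and scale the 2 reference gene sets.

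Macrophages are phagocytes that live on signals from the colony-stimulating factor receptor Csf1r and carry the leucocyte marker CD45 (Ptprc), the integrin CD11b (Itgam) and F4/80 (Adgre1). In tumours they present antigen on MHC class II molecules, make complement C1q and take up dying cells and lipid. A medium with haematopoietic growth factors lets progenitor cells divide into colonies, and blood-forming progenitors carry the receptor Kit.

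Depth was 47609451, 29471806 and 29311628 expected counts in colony libraries 1, 2 and 3, and 33237917 to 35605463 in the macrophages. Levels are CPM, the counts scaled to a common library size, with library sizes scaled by the trimmed mean of M values (TMM), and 3 counts, taken as the limit of detection, stood for 0.0545 to 0.0972 CPM in these 6 libraries. The floor covers counting error only. The 3 colony libraries were deposited in a table that holds no other library, so handling of that table and the colony group cannot be told apart. Rps27, a ribosomal protein gene, stood at 1.05, 0 and 0 CPM in the colony libraries and at 24.5 CPM or more in each of the other 20 libraries. Mrpl23, a mitochondrial ribosomal protein gene, stood at 0.945, 0.556 and 0.543 CPM against at least 11.3 in the other 20. These were the only 2 genes under 2 CPM in all 3 colony libraries and over 10 CPM in all the others, and no colony change of either is read here. Carmil1 lay just outside that cut, at 1.93, 2.54 and 2.14 CPM in the colonies. It stood at 17.4 to 31 CPM in the macrophages, 11.5 to 14 in the line and 14 and 16.4 in SCCVII colonies.

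Of the colony libraries, library 1 carried the genes that define the sorted macrophages at the highest levels. Ptprc, the CD45 phosphatase of all leucocytes (GRCm38 chromosome 1, 138062861 to 138175708), stood at 149, 2.72 and 0.392 CPM in colony libraries 1, 2 and 3 and at 708, 659 and 482 CPM in the macrophages. Itgam, which encodes CD11b (chromosome 7, 128062640 to 128118491), stood at 821, 7.81 and 0.332 CPM against 2154, 2042 and 1928. For Adgre1, the F4/80 gene (chromosome 17, 57358691 to 57483527), the values were 1239, 2.84 and 0.0302 CPM against 894, 956 and 636. Library 1 was above every macrophage library for Adgre1, and libraries 2 and 3 were far below, library 3 at the level of the tumour line, which had at most 0.175 CPM of it. Csf1r stood at 558, 5.21 and 0.663 CPM against 3171, 3554 and 2480. None of these 4 genes passed the test over all 3 colony libraries (edgeR quasi-likelihood test with Benjamini-Hochberg adjusted p from 0.17 to 0.76), and each fell without colony library 1. Kit was at 0.8, 0 and 0 CPM in the colonies and 4.02, 3.36 and 3.31 in the macrophages, so no colony library reached the macrophages' own low level of this receptor.

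Colony libraries 2 and 3 went against their label in these markers and had more of the genes of the tumour line. A set of 31 genes was taken with at least 50 CPM in every HPV-negative line library and under 1 CPM in every HPV-positive MEER and SCCVII macrophage library. The median member reached 32.0, 69.2 and 72.4% of its level in the line in colony libraries 1, 2 and 3, and 0.685, 0.446 and 5.06% in the macrophages. A mirror set of 147 macrophage genes, chosen on macrophages of the other tumour models, reached a median of 23.0, 0.383 and 0.0422% of its level there, and 93.9, 95.1 and 78.4% in the HPV-negative macrophages. Macrophage library 4 held more of the line's genes than libraries 1 and 2. Across genes, log levels of colony libraries 2 and 3 correlated with the 3 line libraries at 0.899 to 0.926 and with the macrophages at 0.696 to 0.779. For colony library 1 these were 0.851 to 0.864 and 0.841 to 0.888, as a description over genes that share depth and are not replicates. Because these are bulk samples, fewer macrophages in a colony and less macrophage RNA per cell cannot be told apart.

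**Figure D1:**
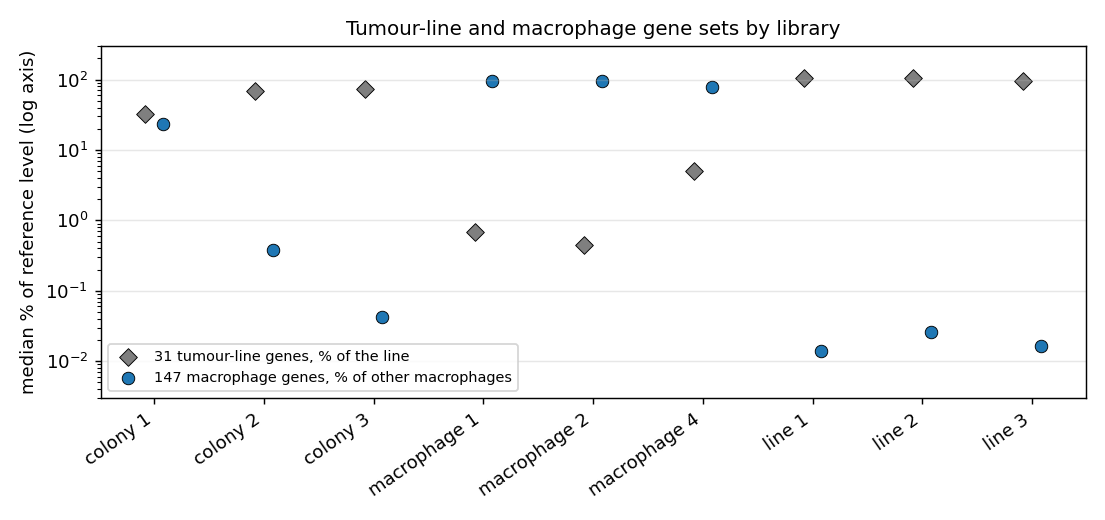
Each library's median level of 31 tumour-line genes (grey diamonds, as a percentage of the line) and of 147 macrophage genes (blue circles, as a percentage of HPV-positive MEER and SCCVII macrophages), on a log axis. Colony library 1 lies at 32.0 and 23.0%, while libraries 2 and 3 lie at 69.2 and 72.4% of the line and at 0.383 and 0.0422% of the macrophages.

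**Figure D2:**
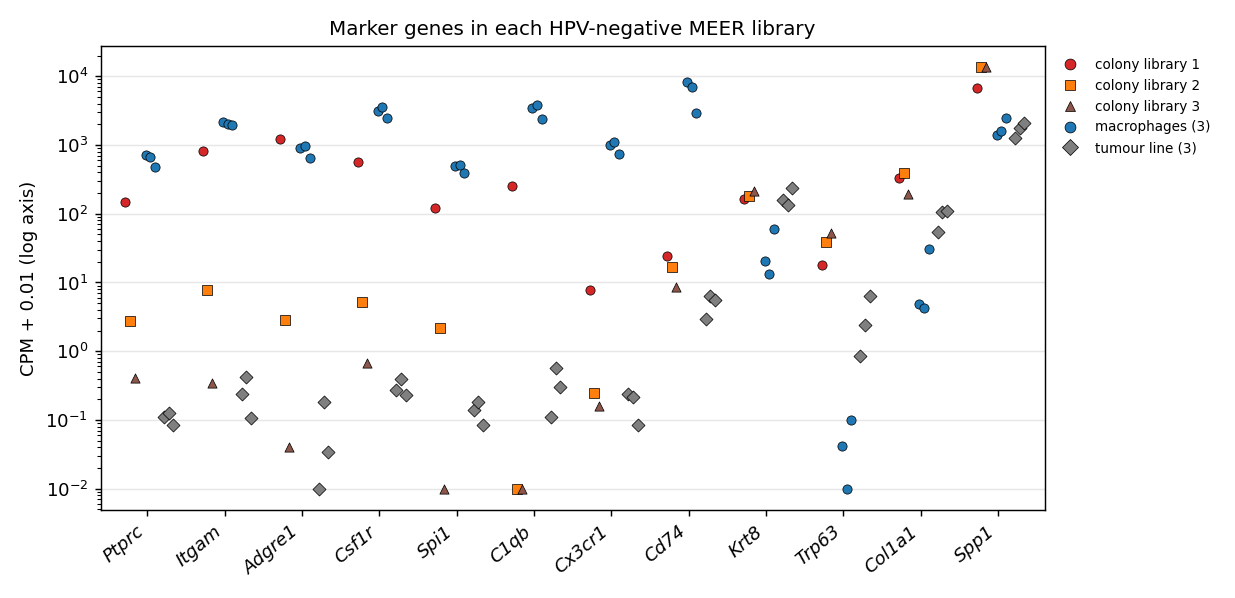
Level in CPM (log axis, 0.01 added) of 12 marker genes, each symbol being 1 library of HPV-negative MEER colonies, macrophages or line. From Ptprc to Cx3cr1 colony library 1 lies far above libraries 2 and 3, while Krt8, Col1a1 and Spp1 lie close together in all 3.

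Colony library 1 differed from the other colony libraries more than any pair of macrophage libraries differed. Of genes with at least 10 CPM in either library, 5.26% differed 4-fold or more between colony libraries 1 and 2, 5.44% between 1 and 3, and 0.458% between 2 and 3. Among macrophage pairs the shares were 0.0217% (1 and 2), 1.11% (1 and 4) and 1.29% (2 and 4). Xist, the RNA that coats the inactive X chromosome of female cells, stood at 134, 0.409 and 0.271 CPM in the colony libraries, at 0.0298 to 0.0324 in the macrophages and at most at 0.0874 in the line. It was high in SCCVII macrophages, at 317 to 371 CPM, and stood at 154 and 9.45 CPM in SCCVII colonies. No HPV-negative colony library had more than 0.418 CPM of Eno1b, which stood at 639 CPM or more in the SCCVII libraries. The Y-linked genes Ddx3y, Kdm5d, Uty and Eif2s3y were absent from the deposited genes and could not be read. In contrasts of colony library 1 with the macrophages, the sex or origin of the cells cannot be told apart from the change to colonies. Counts of genes below are over all 3 colony libraries unless stated. They are repeated without colony library 1, without macrophage library 4 or for colony library 1 alone where that bears on them, the last being chosen after these differences were seen.

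Spi1 encodes PU.1, the transcription factor that macrophage genes depend on, and its own level differed among the colonies in the same way, at 122, 2.14 and 0 CPM in the colony libraries against 491, 515 and 394. Promoters of 4 genes with the PU.1 core GAGGAAG are shown, chosen by their levels. In every colony library 3 of these genes stood below all macrophage libraries and 1 stood above them. Itgam, 1 of the 3, did not pass the test over all 3 colony libraries (edgeR adjusted p = 0.31). The windows are the 250 bases before the start of transcription, from RefSeq on GRCm38.p6, with the core in capitals (CTTCCTC where it lies on the opposite strand). Itgam is at chr7:128062390-128062639 on the plus strand, Fcgr1 at chr3:96293970-96294219 on the minus strand, Trem2 at chr17:48346151-48346400 on the plus strand and Spp1 at chr5:104434861-104435110 on the plus strand, where it is 1 of 2 windows.
Itgam: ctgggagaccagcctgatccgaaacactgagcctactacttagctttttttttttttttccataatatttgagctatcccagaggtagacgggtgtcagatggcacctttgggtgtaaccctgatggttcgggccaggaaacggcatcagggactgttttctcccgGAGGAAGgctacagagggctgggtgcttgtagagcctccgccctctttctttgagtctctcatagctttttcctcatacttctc
Fcgr1: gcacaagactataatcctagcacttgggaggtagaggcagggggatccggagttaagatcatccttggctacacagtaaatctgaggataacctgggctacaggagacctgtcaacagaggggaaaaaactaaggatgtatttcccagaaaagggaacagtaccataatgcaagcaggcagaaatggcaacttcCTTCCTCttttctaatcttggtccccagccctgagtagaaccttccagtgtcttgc
Trem2: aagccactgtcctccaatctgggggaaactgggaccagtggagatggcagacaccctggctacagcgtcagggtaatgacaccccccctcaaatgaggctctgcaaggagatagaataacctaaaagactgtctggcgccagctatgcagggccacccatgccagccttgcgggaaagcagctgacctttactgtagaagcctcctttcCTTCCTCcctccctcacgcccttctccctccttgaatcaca
Spp1: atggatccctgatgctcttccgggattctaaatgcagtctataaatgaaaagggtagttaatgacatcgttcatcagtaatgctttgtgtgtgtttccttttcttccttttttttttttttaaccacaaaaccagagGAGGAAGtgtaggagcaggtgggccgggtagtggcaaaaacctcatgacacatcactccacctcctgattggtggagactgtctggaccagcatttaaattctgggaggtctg
The core lay 84, 56, 41 and 113 bases before the start in this order. It was found on either strand in 3 of 10 macrophage identity genes with a window, 5 of 14 resident-type macrophage genes (35.7%), 2 of 9 epithelial genes (22.2%), 1 of 8 fibroblast genes (12.5%) and 3 of 12 matrix and protease genes (25.0%), against 3244 of 27025 genes in the table (12.0%). Itgam, Fcgr1 (145, 0 and 0 CPM in the colonies) and Trem2 (57, 9.74 and 9.92) were below every macrophage library in all 3 colony libraries, whereas Spp1 was above every one of them. The lists hold few genes with a window, and the epithelial list, whose members mostly rose, also had a larger share than all genes. A match of letters is a description and not a binding site, and a part of PU.1 in these changes was not tested.

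Over all 3 colony libraries, 15053 genes were tested and 8528 (56.7%) were called at an adjusted p under 0.05, with 4783 higher (31.8%) and 3745 lower (24.9%) in the colonies. Without regard to a test, all 3 colony libraries were above all 3 macrophage libraries for 5400 genes (35.9%) and below them for 5442 (36.2%). The mean of the tumour line was above the macrophage mean for 86.6% of the rises, against 52.6% of all genes tested. For 82.2% of the falls it was below the macrophage mean. The same macrophage libraries enter the calls and these shares, so the choice of genes by itself favours high shares, and they are only a description. The biological coefficient of variation was 45.6%. It was 26.6% without colony library 1, where 11568 of 15441 genes (74.9%) were called, 5727 higher (37.1%) and 5841 lower (37.8%). Colony library 1 alone, assumed to vary like the macrophages, gave 6735 of 15916 (42.3%), 3354 higher (21.1%) and 3381 lower (21.2%). Of the rises over all 3 libraries, 4708 remained without colony library 1 and 2964 with it alone, and of the falls 3716 and 2661. Without macrophage library 4, the one with more line genes, 7658 of 15531 were called (49.3%), 4467 higher (28.8%) and 3191 lower (20.5%). Falls were fewer without colony library 2 (2332), macrophage library 1 (2103) or macrophage library 2 (2408). With so many genes called, a count of members is read against these shares of genes called.

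Genes of antigen presentation on MHC class II had the lowest median of the lists over all 3 colony libraries, and all 3 were low. Of 10 genes tested, 9 fell and none rose, with a median log2 change of -7.97 against 0.00 over all genes tested. Colony library 1 alone gave 9 falls of 10. H2-Aa, an MHC class II chain (chromosome 17, 34282744 to 34287823), stood at 2.24, 0.322 and 0.0603 CPM in the colonies and 3312, 2385 and 1026 in the macrophages, a log2 change of -11.24 ± 1.75 (SE; edgeR adjusted p = 0.0045). Library 1, with more of the other macrophage genes, was the highest colony for H2-Aa and still far below every macrophage library. Cd74, the invariant chain that escorts these molecules, stood at 24.4, 17 and 8.59 CPM against 8269, 6859 and 2918, a log2 change of -8.48 ± 0.77 (edgeR adjusted p = 0.0017). Ciita, the switch that turns the class II genes on, stood at 0.236, 0.146 and 0.0905 CPM against 139, 94.9 and 45.6, a log2 change of -9.11 ± 0.67. The groups lay far apart for all 3 genes, with macrophage library 4 the lowest of its group. MHC class I genes moved less, with 9 of 13 falling at a median of -2.08. H2-K1, a class I heavy chain, was at 486, 170 and 179 CPM against 1680, 1636 and 1137, while H2-T23 stood at 242, 150 and 151 against 234, 191 and 142 and did not pass the test (log2 -0.05, edgeR adjusted p = 0.89).

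Genes of macrophage identity were low in colony libraries 2 and 3 and at an intermediate level in library 1. Of 17 tested, 6 fell, none rose and 11 did not pass over all 3 libraries, with a median log2 change of -3.23, while 17 fell without colony library 1 (median -7.30) and 14 fell with colony library 1 alone (median -1.87). All 3 colony libraries were below all 3 macrophage libraries for 16 of the 17, Adgre1 being the exception. Cebpa, a myeloid transcription factor, stood at 14.5, 5.82 and 7.48 CPM against 175, 208 and 134, a log2 change of -4.20 ± 0.46. Cebpa was low in every colony library, library 1 included. Lyz2, the lysozyme of phagocytes, was close to the macrophages in library 1 only, at 9620, 824 and 30.4 CPM against 10546, 12551 and 10405. It did not pass over all 3 libraries (edgeR adjusted p = 0.42) nor for colony library 1 alone (log2 -0.15), and it fell without that library.

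Markers of tissue-resident macrophages fell further, 13 of 17 over all 3 colony libraries with none rising and a median of -5.77. They all fell both without colony library 1 (17 of 17, median -9.52) and with it alone (17 of 17, median -4.19). Apoe, the lipid carrier that was among the macrophages' most abundant transcripts (chromosome 7, 19696109 to 19699188), stood at 44.8, 13 and 3.62 CPM against 9249, 13129 and 5411, a log2 change of -8.78 ± 1.29 (edgeR adjusted p = 0.0039). Cx3cr1, the fractalkine receptor, stood at 7.65, 0.234 and 0.151 CPM against 1000, 1092 and 745, a log2 change of -8.39 ± 1.92 (adjusted p = 0.014). Gpr34, a lysophospholipid receptor, had 3 counts in all colonies together (0.0364, 0.0292 and 0 CPM) against 85.5, 104 and 59.8 CPM. Vsig4, a complement receptor, had no count in any colony library and 4.05, 22.2 and 4.51 CPM in the macrophages. Mrc1, the mannose receptor CD206, stood at 79.8, 4.24 and 1.54 CPM against 2100, 2631 and 1468, a log2 change of -6.12 ± 1.72 (adjusted p = 0.027). The complement chain C1qa was at 82.8, 0 and 0 CPM against 3434, 4146 and 2460 and did not pass over all 3 libraries (edgeR adjusted p = 0.11), with library 1 far from the other colonies.

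**Figure D3:**
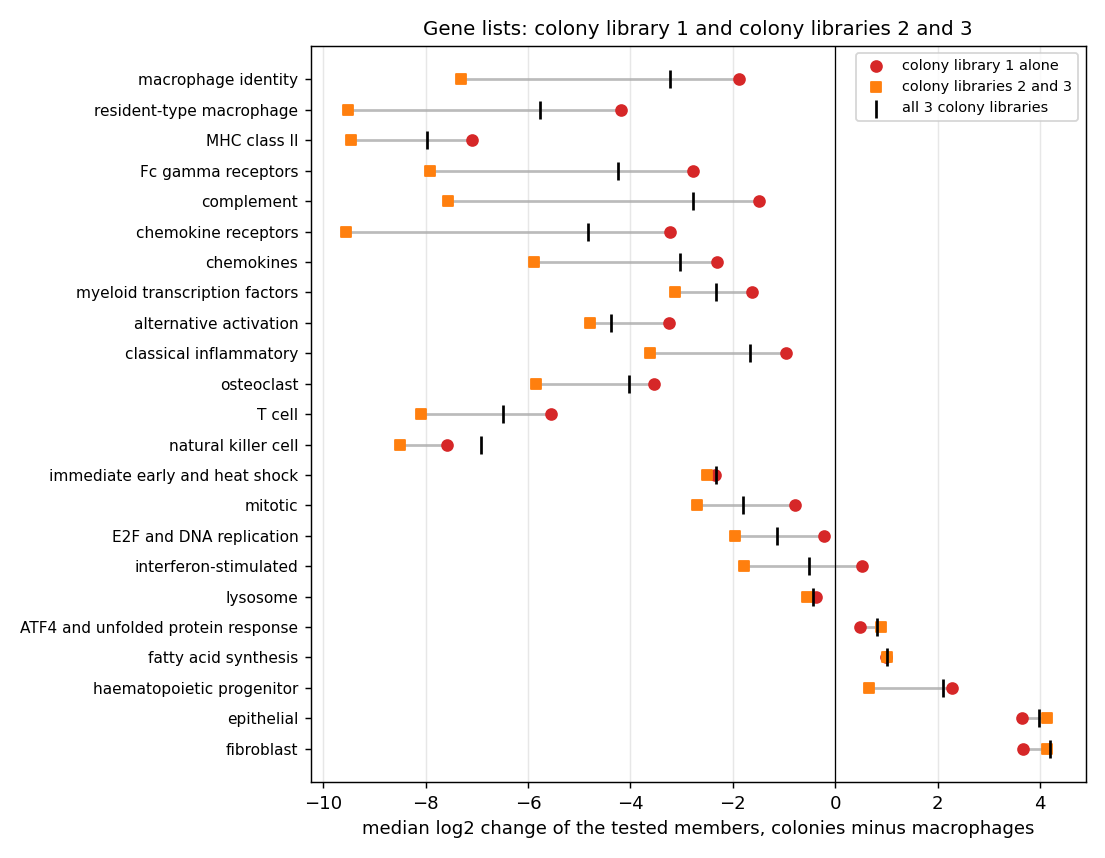
Median log2 change (colonies minus macrophages) of the tested members of 23 gene lists, for colony library 1 alone (red circles), for libraries 2 and 3 (orange squares) and for all 3 (black bars); the members tested differ between the fits. Macrophage lists lie far to the left for libraries 2 and 3 and less far for library 1, whereas MHC class II is low in both and the epithelial and fibroblast lists are high in both.

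Receptors of macrophages followed the same split. Of 4 Fc gamma receptors, which bind antibody-coated targets, 2 fell over all 3 libraries, 4 without colony library 1 and 1 without macrophage library 4. Fcgr2b stood at 50.7, 10.2 and 0.482 CPM against 1535, 1753 and 1112. Chemokine receptors fell in 4 of 8 over all 3 libraries, in 8 of 8 without colony library 1 and in 7 of 9 with it alone. Cxcr4, the receptor of Cxcl12, was low in every colony library at 3.11, 2.02 and 1.03 CPM against 137, 174 and 80.7, a log2 change of -5.97 ± 0.59 (edgeR adjusted p = 0.0018). Its ligand Cxcl12 went the opposite way, at 277, 920 and 554 CPM against 1.13, 0.592 and 5.85, a log2 change of 7.82 ± 1.20 (adjusted p = 0.0044). Among 23 chemokines 3 rose and 11 fell, with a median of -3.04, and 19 fell without colony library 1 (median -5.89). Cxcl9, a T cell attractant made under interferon gamma, stood at 0.164, 0.0585 and 0 CPM against 239, 224 and 95.3, a log2 change of -11.04 ± 1.00 (adjusted p = 0.0017). Cx3cl1, the ligand of Cx3cr1, rose from 2.56, 3.24 and 12.7 CPM to 190, 264 and 312, a log2 change of 5.35. Complement genes fell in 2 of 11 over all 3 libraries, in 10 without colony library 1 and in 7 with it alone. C4b, a complement component, was among the falls.

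Genes of both kinds of macrophage activation fell more often than they rose. Of 17 genes of alternative activation 12 fell and none rose, at a median of -4.37. Arg1, an arginase of tumour macrophages (chromosome 10, 24915221 to 24927484), stood at 49.7, 56.2 and 12.8 CPM against 1449, 1536 and 1900, a log2 change of -5.35 ± 0.67 (edgeR adjusted p = 0.0028). Mgl2, a lectin of the same programme, stood at 0.145, 0 and 0.392 CPM against 143, 131 and 44.2. All colony libraries were far below the macrophages for both genes. Fn1, the matrix protein fibronectin, did not pass the test, at 4700, 6758 and 5542 CPM against 4717, 6222 and 7593 (log2 -0.14, adjusted p = 0.72). Of 23 classical inflammatory genes 4 rose and 10 fell, at a median of -1.66, and 17 fell without colony library 1 (median -3.61). Nos2, the inducible nitric oxide synthase, stood at 2.2, 1.9 and 0.543 CPM against 39.3, 38.5 and 37.9, a log2 change of -4.61 ± 0.57 (adjusted p = 0.0027). Il1b was at 9.62, 0.234 and 0.0302 CPM against 382, 362 and 112. Ptgs2, the inducible cyclooxygenase, rose in all 3 libraries to 454, 682 and 878 CPM from 31.4, 27.9 and 26.6, a log2 change of 4.53 ± 0.28 (adjusted p = 0.0014). It also stood at 148 to 354 CPM in the tumour line.

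Checkpoint ligands and receptors moved both ways. Of 12 tested 2 rose and 5 fell, at a median of -1.74, while 9 fell without colony library 1 and 8 with it alone. Without macrophage library 4 the rises were 1. Cd274, which encodes PD-L1 (chromosome 19, 29367455 to 29388095), stood at 32.4, 19.3 and 10.2 CPM against 105, 99.9 and 73.2, a log2 change of -2.15 ± 0.47 (edgeR adjusted p = 0.012). Cd86, a costimulatory ligand, stood at 3, 0.292 and 0.0603 CPM against 127, 149 and 97. The 2 that rose, Nectin2 (57, 31.2 and 24.4 CPM against 12.4, 16.2 and 8.06) and Pvr (49, 42.2 and 46 against 31.3, 29.1 and 36.5), are adhesion molecules that many epithelial and tumour cells carry. Sirpa, the receptor for the CD47 signal, was at 461, 12.8 and 0.482 CPM against 1927, 2076 and 1514 and did not pass over all 3 libraries (adjusted p = 0.19). Of 29 interferon-stimulated genes 1 rose and 7 fell over all 3 libraries, at a median of -0.51. The share of falls was near the 24.9% of all genes tested, and that of rises was under the 31.8%. The count was 18 falls without colony library 1, whereas library 1 alone gave 6 rises and 4 falls. Ifi44 rose, from 5.7, 5.88 and 4.03 CPM to 25.8, 35.8 and 18.8, and Gbp2, an interferon-induced GTPase, fell from 314, 241 and 170 to 24.8, 11 and 13.5.

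Among 25 myeloid transcription factors 2 rose and 13 fell, at a median of -2.33, and 21 fell without colony library 1. Besides Cebpa the falls held Zeb2, at 103, 77.7 and 70 CPM against 374, 369 and 353, and Klf2, at 12.4, 0.79 and 1.06 against 59.6, 80.8 and 41.8. Id3, an inhibitor of helix-loop-helix factors, rose from 1.68, 1.12 and 0.806 CPM to 36.9, 15.9 and 12.9, a log2 change of 4.21 ± 0.58 (edgeR adjusted p = 0.0035). Osteoclast genes, part of which tumour macrophages share, fell in 8 of 10 at a median of -4.03, and in 5 of 10 without macrophage library 4. Ctsk, a collagen-cutting cathepsin, stood at 11, 8.98 and 1.15 CPM against 254, 351 and 471. Immediate early and heat shock genes fell in 13 of 18 and rose in 2, at a median of -2.33. Fos, an early response gene (chromosome 12, 85473890 to 85477273), stood at 35.9, 27.4 and 20 CPM against 2006, 2055 and 1064, a log2 change of -5.93 ± 0.46 (adjusted p = 0.0016), with the 3 colony libraries close together. Sorted cells and cultured cells were handled differently, which cannot be told apart from the groups here. Hsph1, a heat shock protein of the cytosol, rose from 52.1, 58.4 and 57.3 CPM to 282, 473 and 447.

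Genes of T, B and natural killer cells were present at low levels in the sorted macrophages and most fell in the colonies. T cell markers fell in 11 of 12 at a median of -6.48, natural killer cell markers in 7 of 8 at a median of -6.91, and B cell markers in 4 of 5 at a median of -3.56, or in 1 of 6 with colony library 1 alone. The T cell list summed to 108, 95.1 and 79.2 CPM in the macrophages and to 9.18, 7.37 and 2.95 in the colonies. Cd3g, a chain of the T cell receptor complex, stood at 9.98, 4.55 and 7.07 CPM in the macrophages and had no count in any colony library. Gzmb, a granzyme of cytotoxic cells, likewise had none against 17.1, 9.09 and 8.74 CPM. Klrb1b, a natural killer cell receptor and the largest fall by rule (chromosome 6, 128813706 to 128826331), stood at 76.2, 43.6 and 22.3 CPM in the macrophages and had no count in the colonies, which makes it at least 1932-fold lower against a limit of 3 counts over the group. The 9 genes of the natural killer cell list summed to 73.2, 38.8 and 39.9 CPM in macrophage libraries 1, 2 and 4. Klrb1b alone was above that sum in libraries 1 and 2, and which of the sorted cells carried it was not tested. The part of T, B and natural killer cells in other changes of the comparison was not tested either.

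Further falls among the 15 largest by rule were outside the fixed lists. Col14a1, a fibril-associated collagen, was low in all 3 colony libraries at 0.0364, 0.146 and 0.121 CPM against 171, 221 and 204, a log2 change of -10.99 ± 0.50 (edgeR adjusted p = 0.0013). Slco2b1, an organic anion transporter, stood at 0.273, 0.146 and 0 CPM against 108, 135 and 92.2. Fcrlb, an Fc receptor-like protein, stood at 0.0727, 0.117 and 0 CPM against 70.7, 78.2 and 71. Tlr12, a Toll-like receptor, was at 0.0909, 0.0585 and 0.211 CPM against 71.5, 57 and 10.4. In each of these the highest colony library was far below the lowest macrophage library.

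Most epithelial genes rose in the colonies. Of 13 tested, 10 rose and 1 fell, at a median log2 change of 3.98, and 5 rose and 1 fell with colony library 1 alone. Krt8, a keratin of simple epithelia (chromosome 15, 101996698 to 102004482), stood at 165, 179 and 213 CPM against 20.8, 13.4 and 59, a log2 change of 2.56 ± 0.58 (edgeR adjusted p = 0.013). Its colony levels lay within the 134 to 240 CPM of the tumour line. Krt18, its partner, stood at 142, 141 and 178 CPM against 14.4, 10.6 and 39.8. For both keratins macrophage library 4 was the highest of its group, and colony library 1, though it carries macrophage genes, was level with the other two. Trp63, the p63 factor of stratified epithelium (chromosome 16, 25683763 to 25892102), went beyond the line, at 17.9, 39.4 and 52.2 CPM against 0.0324, 0 and 0.0895 in the macrophages and 0.856, 2.36 and 6.39 in the line. Its log2 change was 9.64 ± 0.83 (adjusted p = 0.0017). Cdh1, which encodes E-cadherin, was the list's fall, at 4.25, 2.4 and 8.26 CPM against 66.4, 50.7 and 44.5, and the line held at most 2.5. Epcam was under 1 CPM in all 9 libraries of the model.

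Most genes of the fibroblast list rose as well. Of 13 fibroblast genes 8 rose and 2 fell, at a median of 4.20, and 4 rose and 1 fell with colony library 1 alone. Col1a1, a chain of type I collagen (chromosome 11, 94936224 to 94953042), stood at 334, 389 and 195 CPM against 4.79, 4.3 and 30.2, a log2 change of 4.54 ± 0.96 (edgeR adjusted p = 0.011), and at 54.9 to 108 CPM in the line. Its partner chain Col1a2 did not pass the test, at 4.74, 1.55 and 2.56 CPM against 2.66, 3.24 and 9.49. Postn, the matrix protein periostin, stood at 141, 528 and 347 CPM against 0.486, 1.62 and 3.16, a log2 change of 7.56 ± 0.96 (adjusted p = 0.0029). Thy1 and Fap, surface markers of fibroblasts, were the 2 that fell, at or under 0.254 CPM in every colony library, and Dcn and Lum stayed under 16 CPM. The 8 that rose were 3 collagen genes, Postn, Sparc, Acta2 and both platelet-derived growth factor receptors.

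The list of 17 matrix and protease genes did not move as a whole, with 5 rises, 3 falls and a median of -0.14, or 5 falls without colony library 1. Spp1, the secreted adhesion protein osteopontin (chromosome 5, 104435118 to 104441050), stood at 6707, 13617 and 13506 CPM against 1376, 1580 and 2433 in the macrophages and 1244 to 2065 in the line, a log2 change of 2.63 ± 0.42 (edgeR adjusted p = 0.0049). Per length of transcript its mean was 17776 in TPM, the level scaled by transcript length, in the colonies, against 1444 TPM for Fn1. Thbs1, thrombospondin, stood at 6588, 11140 and 9440 CPM against 982, 801 and 1056, a log2 change of 3.24 ± 0.32 (adjusted p = 0.0018). Colony libraries 2 and 3 were above library 1 in both genes, and all were above every macrophage and line library. Tgfbi, a matrix protein that macrophages make in quantity, fell to 280, 101 and 95.2 CPM from 5177, 5047 and 4635, a log2 change of -4.94. Timp3, an inhibitor of metalloproteinases, rose to 1459, 3581 and 4093 CPM, from 5.7 and 7.25 in macrophage libraries 1 and 2 and 210 in library 4.

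The list of haematopoietic progenitor genes rose in 9 of 18 and fell in 1, at a median of 2.10. Without colony library 1, 9 rose and 7 fell of 19, at a median of 0.65, and with it alone 8 rose and 3 fell of 20. Cd34, a sialomucin of progenitors and of other cells (chromosome 1, 194938819 to 194961279), stood at 15.2, 17 and 23.5 CPM against 2.07, 1.96 and 2.15, a log2 change of 3.15 ± 0.22 (edgeR adjusted p = 0.0015). The line carried it at 24.2 to 34.3 CPM. Procr, the protein C receptor, stood at 64.1, 79.7 and 76.6 CPM against 2.4, 2.37 and 5.4, with 23.6 to 30.2 in the line. Hlf, a leucine zipper factor, stood at 14.8, 29 and 33 CPM against 0.0324, 0.0311 and 0.328, with 3.82 to 13 in the line. The colonies were above the macrophages in each, and the tumour line expressed all 3 genes. Flt3, a receptor of early progenitors, was the list's fall, at 0.254, 0.0585 and 0 CPM against 1.68, 0.841 and 1.94. Kit did not pass over all 3 libraries (edgeR adjusted p = 0.082) and fell without colony library 1.

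Of 12 colony-stimulating factors and receptors tested 4 rose and 3 fell, with 8 falls without colony library 1 and 1 without macrophage library 4. Over all 3 libraries both shares were near those of all genes tested, 31.8% higher and 24.9% lower. The rises were all ligands. Csf1, the growth factor of macrophages, stood at 198, 269 and 269 CPM against 21.2, 23.3 and 50.6, a log2 change of 2.94 ± 0.40 (edgeR adjusted p = 0.0033). Il34, the other ligand of Csf1r, stood at 35.1, 31.1 and 30.5 CPM against 1.1, 1.09 and 5.13. Kitl, the ligand of Kit, stood at 89.9, 350 and 403 CPM against 3.34, 3.3 and 18.3, a log2 change of 5.04 ± 1.02 (adjusted p = 0.0095). All 3 were present in the line, at 377 to 599 CPM for Csf1. Csf2ra, a receptor chain for granulocyte-macrophage colony-stimulating factor, fell to 42.6, 9.77 and 5.25 CPM from 317, 320 and 329.

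Genes of cell division were not higher in the colonies. Of 23 mitotic genes 13 fell and none rose, at a median of -1.81, while 7 fell without macrophage library 4. The falls were 23 without colony library 1 (median -2.69) and 18 with it alone (median -0.79). Mki67, the Ki-67 proliferation marker (chromosome 7, 135689784 to 135716361), stood at 114, 23.4 and 20.3 CPM against 222, 227 and 294, with 58.7 to 150 in the line (log2 -2.20 ± 0.76, edgeR adjusted p = 0.05 and not called). Top2a, a topoisomerase of dividing cells, stood at 140, 50.7 and 48.5 CPM against 216, 222 and 220, a log2 change of -1.44. Library 1 was between the other colonies and the macrophages in both genes. E2F targets and genes of DNA replication fell in 3 of 28 over all 3 libraries, in 26 without colony library 1 and in 7 with it alone, and Tyms, thymidylate synthase, did not pass the test, at 31.2, 32.2 and 29 CPM against 30.4, 32.3 and 30.7.

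Fatty acid synthesis genes rose in 6 of 10 and fell in 1, at a median of 1.01. The list summed to 1689, 2338 and 2334 CPM in the colonies and 1166, 1175 and 1233 in the macrophages. In the tumour line it summed to 2429, 2124 and 2666 CPM. Me1, the malic enzyme that supplies reducing power, stood at 106, 237 and 231 CPM against 1.65, 1.31 and 3.7, a log2 change of 6.40 ± 0.60 (edgeR adjusted p = 0.0017). Scd1, a fatty acid desaturase, stood at 130, 269 and 286 CPM against 7.32, 4.55 and 14.3. Acly, which makes acetyl-CoA, was the fall, at 161, 113 and 132 CPM against 347, 381 and 289. Sterol synthesis genes rose in 6 of 17 and fell in 1 at a median of 0.11, a share of rises near that of all genes tested, led by Sc5d (58.2, 127 and 124 CPM against 22.6, 21.6 and 21.4). Of 15 lipid handling genes 2 rose and 7 fell, at a median of -1.30, and 11 fell without colony library 1. Abca1, the cholesterol exporter, fell to 117, 102 and 130 CPM from 515, 672 and 568, and Gpnmb, a glycoprotein of lysosome-rich cells that the line also carries, rose to 1323, 767 and 1239 from 10.9, 14.4 and 39.4. Lysosome genes fell in 7 of 23 and rose in 1, at a median of -0.43, and 13 fell without colony library 1. Over all 3 libraries their share of falls was not far above the 24.9% of all genes tested.

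Of 18 genes of oxidative phosphorylation 10 fell and none rose, at a median of -0.53. Hypoxia and glycolysis genes split evenly, with 5 of 23 rising and 5 falling, or 10 falling without colony library 1 and 3 without macrophage library 4. Over all 3 libraries both shares were under those of all genes tested, 31.8% higher and 24.9% lower. The rises included Vegfa, the endothelial growth factor, at 395, 662 and 461 CPM against 135, 142 and 156. Car9, a carbonic anhydrase, also rose, at 36.2, 81.7 and 50.2 CPM against 10.9, 9.34 and 9.34. The falls were Eno1, Tpi1, Gapdh and Hk2 of glycolysis and the glucose transporter Slc2a1. Of 15 ATF4 and unfolded protein response genes 7 rose and 1 fell, at a median of 0.81, with 3 falls without colony library 1. The list summed to 3250, 4062 and 3623 CPM in the colonies and 2356, 2543 and 1986 in the macrophages. In the tumour line it summed to 6111, 7157 and 5672 CPM. Asns, asparagine synthetase, rose to 87.7, 77.5 and 146 CPM from 5.02, 4.36 and 15.2. NRF2 targets rose in 5 of 9 at a median of 0.54, among them both subunits of the glutathione-making enzyme, Gclm (138, 273 and 299 CPM against 24.6, 27.1 and 39.4) and Gclc. Of 10 p53 targets 5 rose and 3 fell, or 5 fell without colony library 1 and none with it alone. Mdm2, the brake on p53, stood at 1338, 2449 and 1987 CPM against 114, 85.8 and 232, and at 2761 to 4055 in the line, while Cdkn1a fell. Of 10 iron and haem genes 2 fell and 1 rose, Cp, the copper ferroxidase ceruloplasmin, and 7 fell without colony library 1.

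Colony library 1 by itself held a large part of a macrophage's transcripts, at percentages that differed widely between genes. Relative to their mean in the HPV-negative macrophages, the 147 macrophage genes stood at a median of 24.2% in library 1, and at 0.0998% at the lowest. In libraries 2 and 3 the medians were 0.437 and 0.0554%. In library 1, 4 of the 147 were at or above the macrophage mean, among them Adgre1 (149%), Ifi27l2a (142%) and Rac2 (122%), and 7 were under 1%, among them H2-Aa (0.0998%), H2-Eb1 (0.113%), H2-Ab1 (0.197%), Cd83 (0.655%) and Cx3cr1 (0.809%). Slc11a1, a metal transporter of the phagosome, stood at 92.9% and Siglec1, a lectin that binds sialic acid, at 74.1%, against 8.00% for C1qb and 10.2% for the chemokine receptor Ccr2. The lower and upper quartiles of the 147 genes in library 1 were 14.1 and 35.4%. With 1 library, this spread has no replicate.

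The genes that differed most among the colonies were all highest in library 1, and are given without a test. Marco, a scavenger receptor for particles and bacteria (chromosome 1, 120474538 to 120505024), stood at 2677, 0.263 and 0.121 CPM, against 0.292, 0.623 and 0.925 in the macrophages. Saa3, an acute-phase protein of activated macrophages, stood at 4035, 1.7 and 10.9 CPM against 1.26, 1.84 and 0.627. Acod1, which makes itaconate, stood at 442, 0.0877 and 0 CPM against 38.3, 23.8 and 31.7, and Slc13a3, a dicarboxylate transporter, at 678, 0.0585 and 0.0905 against 91, 106 and 48.9. In all 4 genes library 1 was above every macrophage library. Itgal, an integrin chain of leucocytes, stood at 335, 1.05 and 0.0603 CPM against 243, 251 and 135. Marco was also above its macrophages in SCCVII colonies, at 104 and 5.34 CPM against 0.231 to 0.648. So was Saa3, at 27 and 13.8 CPM against 0.24 to 0.297, while Acod1 and Slc13a3 were below theirs.

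Neutrophil granule genes were present in library 1 as well. There were 8 genes with at least 10 CPM in colony library 1 and under 1 CPM in every other colony, macrophage and line library of the model, chosen after their values were seen. They were Marco, Xist, Mpo, Ngp, Prtn3, Elane, Ctsg and Wfdc21. Mpo, the myeloperoxidase of early granules, stood at 53.5 CPM and had no count in the other 8 libraries. Elane and Prtn3, serine proteases of the same granules, stood at 18.8 and 31.7 CPM. The 13 genes of the neutrophil list summed to 539 CPM in library 1, 14.0 in library 2 and 2.68 in library 3, and to 58.8 to 74.4 in the macrophages. In SCCVII colonies 4 of 5 tested members of that list rose and 1 fell, where 33.8% of all genes tested rose. Prtn3 stood at 3.4 and 3.54 CPM there and Wfdc21 at 19.8 and 3.45, while Mpo, Ngp, Elane and Ctsg were at 0.15 CPM or less. Ly6g, the neutrophil form of Gr1, was at 0.273 CPM and Kit at 0.8 CPM in library 1. Their part in its other changes was not tested.

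**Figure D4:**
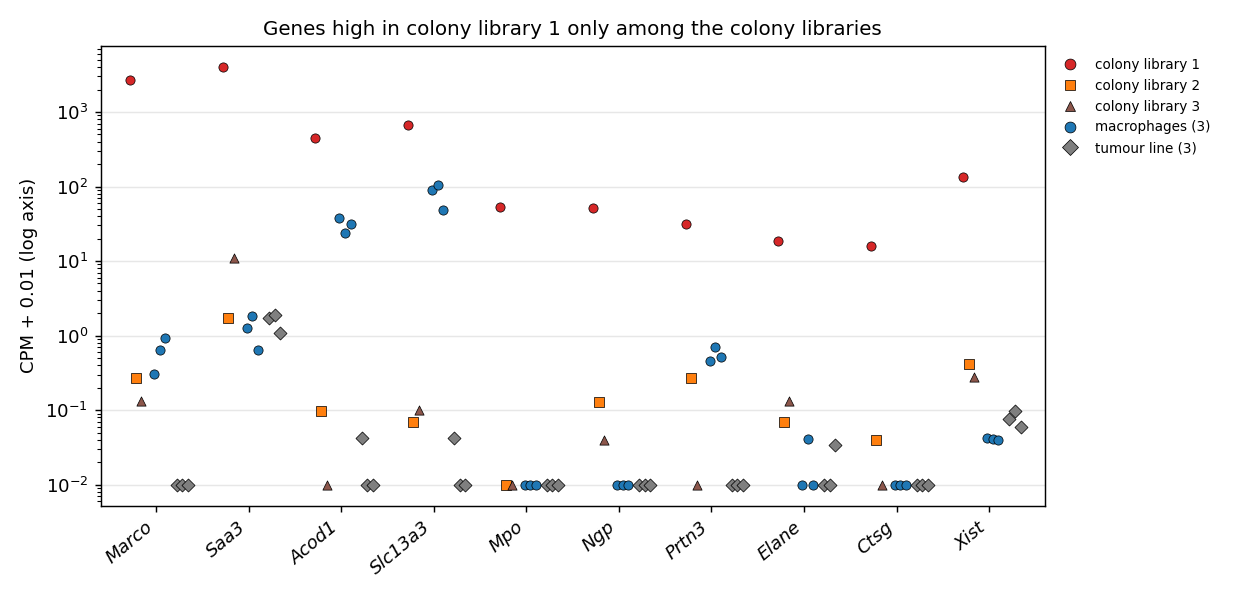
Level in CPM (log axis, 0.01 added) of 10 genes that were high in colony library 1 alone among the colonies, each symbol being 1 library of HPV-negative MEER. Marco and Saa3 stand at 2677 and 4035 CPM in library 1, and Mpo, Ngp and Ctsg have no count in any macrophage or line library.

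A group of genes stood above both the macrophages and the tumour line. There were 291 genes that stood in every colony library at no less than 2 times every macrophage and every line library, of 8716 with at least 10 CPM in every colony library, a group chosen after its values were seen. Sprr1a, a cornified envelope protein of keratinocytes (chromosome 3, 92483952 to 92485895), stood at 378, 338 and 352 CPM against 0.716 to 1.91 in the macrophages and 1.05 to 2.13 in the line. Cp stood at 1521, 3276 and 3021 CPM against 33.8 to 48.4 and 75.6 to 129. Aqp1, a water channel, stood at 692, 646 and 581 CPM against 5.86 to 41 and 1.28 to 3.7. The 3 colony libraries were close to each other for Sprr1a and Aqp1, and library 1 was the lowest for Cp. Clu, the chaperone clusterin, Igfbp5, a binding protein of insulin-like growth factors, and Cxcl5, a neutrophil-attracting chemokine, had the same order, as did Spp1 and Thbs1.

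The largest rises named by rule held secreted, matrix and esterase genes. Prss35, a serine protease-like protein (chromosome 9, 86743649 to 86758443), stood at 41.5, 73.9 and 70.9 CPM and had no count in any macrophage library, at least 1997-fold higher against 3 counts over the group. Ces1d and Gabrg1, a carboxylesterase and a subunit of the receptor for gamma-aminobutyric acid, likewise had none, and were at least 1153-fold and 895-fold higher. Ces1f, a related esterase, stood at 283, 695 and 938 CPM against 0, 0 and 0.388. Fmod, the matrix protein fibromodulin, stood at 96.8, 366 and 189 CPM against 0, 0.0311 and 0.209, and Scg2, a secretogranin, at 41.2, 169 and 185 against 0.0648, 0.0311 and 0.119. Colony library 1 was the lowest of the 3 for all of these. C1s1, a complement protease, stood at 276, 629 and 455 CPM against 0.453, 0.311 and 2.36, and Tnn, the matrix protein tenascin N, at 63.2, 77.9 and 55 against at most 0.239.

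**Figure D5:**
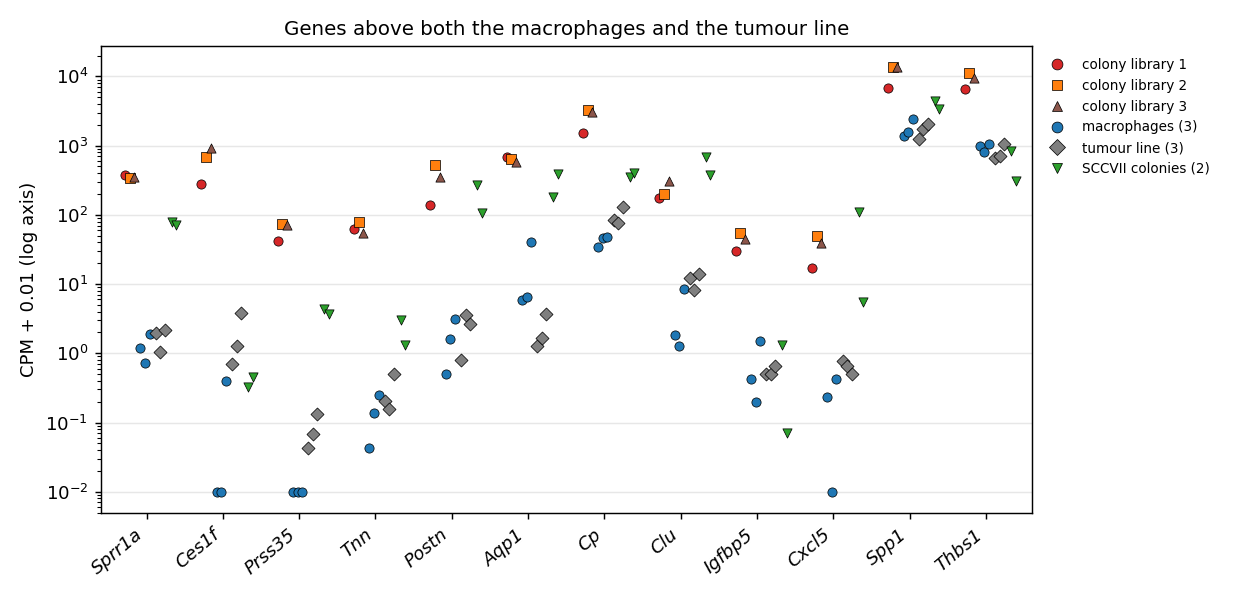
Level in CPM (log axis, 0.01 added) of 12 genes that stood in every HPV-negative colony library above every macrophage and tumour-line library, with the 2 SCCVII colony libraries beside them. For Sprr1a, Aqp1, Cp and Clu the SCCVII colonies also lie above the HPV-negative macrophages, whereas for Ces1f they stay under 1 CPM.

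Below both the macrophages and the line stood 25 genes, of 7448 with at least 10 CPM in every macrophage and line library. Besides Rps27 and Mrpl23 they included Tsc22d3, a glucocorticoid-induced leucine zipper gene, at 17, 14.7 and 16.5 CPM against 136 to 155 in the macrophages and 65.5 to 93.4 in the line. Rbm3, a cold-induced RNA-binding protein, stood at 177, 110 and 107 CPM against 498 CPM or more in every macrophage and line library. Lmna, the nuclear lamin A gene, stood at 224, 140 and 191 CPM against 708 to 977 and 588 to 790. In the SCCVII model, whose colonies and macrophages lie in 1 table, these 3 genes fell as well, while some others of the 25 did not. Eif4ebp1 stood at 36.9, 22.8 and 28.5 CPM in HPV-negative colonies against 98.4 to 102 in their macrophages. In SCCVII it was higher in the colonies, at 152 and 215 CPM against 102 to 109 (edgeR adjusted p = 0.012). Carmil1 fell less there, by a log2 change of -0.45 against -3.38 in HPV-negative MEER. Tsc22d3 stood at 18.4 and 15.5 CPM in SCCVII colonies against 134 to 152 in SCCVII macrophages, Rbm3 at 106 and 130 against 617 to 729, and Lmna at 360 and 378 against 1029 to 1079 (edgeR adjusted p of 8.5e-05, 0.00029 and 0.00029).

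Colonies of the SCCVII model, in which both groups lie in 1 table, gave a comparison that shares no library with the first. There 9247 of 14539 genes were called (63.6%), 4918 higher (33.8%) and 4329 lower (29.8%). Of 13843 genes tested in both models, 2813 rose in both, which is 70.4% of the HPV-negative rises and 61.9% of the SCCVII rises. Falls in both were 2140, or 59% and 50.7%, and 528 genes were called in opposite directions. SCCVII colony libraries also differed widely, with Ptprc at 113 and 3.78 CPM and Adgre1 at 140 and 5.19. MHC class II fell in 10 of 10 and mitotic genes in 23 of 23 there. Interferon-stimulated genes fell in 27 of 29, against 7 of 29 in HPV-negative MEER, a difference between counts that was not tested.

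The test of the difference itself, as an interaction over 11 libraries, called 3921 of 16238 genes (24.1%), with 1729 (10.6%) where the HPV-negative change was the higher and 2192 (13.5%) where it was the lower. It called 6949 without colony library 1, and 2578, 2535 and 2612 without SCCVII macrophage libraries 1, 2 and 3. Nid1 and Nid2, basement membrane proteins, differed in opposite directions. Nid1 stood at 0.382, 1.58 and 0 CPM in HPV-negative colonies and 2103 and 2622 in SCCVII colonies, with under 1 CPM in the macrophages of both models. Nid2 stood at 23.8, 24.1 and 19.8 CPM against 73.6, 102 and 63.2 in HPV-negative macrophages, and had no count in SCCVII colonies against 64.5 to 77.1 CPM. Chst1, a sulphotransferase, stood at 114, 112 and 118 CPM in HPV-negative colonies and at 0 and 0.12 in SCCVII colonies, with 22.8 to 31.5 and 14.9 to 16.6 CPM in their macrophages. Crabp1, a retinoic acid binding protein, had no count in HPV-negative colonies and stood at 439 and 392 CPM in SCCVII colonies. Mrc2, a collagen receptor, and Cd248, endosialin, stood at 543 and 429 CPM and at 37.3 and 28.8 CPM in SCCVII colonies, and under 1 CPM in HPV-negative colonies. Ifi44 rose in HPV-negative colonies and stood at 0.859 and 3.15 CPM in SCCVII colonies against 160 to 165 in their macrophages, an interaction of 8.67 in log2 (edgeR adjusted p = 0.00026).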

How the data were processed

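RNA was sequenced from TruSeq stranded mRNA libraries, per the labels' protocols. Per the submitters' processing notes, reads were handled with STAR (version 2.5.3a) and RSEM (version 1.3.0) on the mouse build mm10, that is GRCm38. The authors deposited expected counts and TPM, which are scaled by transcript length, per gene in 2 tables, with no column of another series. The deposited expected counts were rounded to whole numbers, which moved a value by at most 0.5 (13.1% were not whole). TPM, as deposited by the authors, served only to compare genes per length. Of 36793 genes, 35243 (95.8%) matched GENCODE M21 symbols. No label ties the libraries of a group to separate cultures or mice beyond their numbers, so p-values measure the spread between these libraries.

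edgeR 4.0.16 in R 4.3.3 supplied the quasi-likelihood test, after TMM scaling and filtering by expression (minimum count 10, total 15), with a prior count of 0.125 and Benjamini-Hochberg adjustment over all genes tested, called under 0.05. Errors are SE. The procedure was tested on simulated data. The fit of each tumour model used its colonies and macrophages without a block, and the difference between models was an interaction over 11 libraries. Alternatives were RLE size factors, no filter, DESeq2 1.42.0, limma 3.58.1 voom with sample weights, 1 fit of 11 libraries, a test against 1.5-fold, a prior count of 2, a replicate block, each library left out and, chosen after seeing the data, colony library 1 alone.

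Named genes are the 15 largest called rises and falls without overlap and with at least 10 CPM throughout the higher group, up to 2 each way per list, 17 set genes, the 10 genes that differed most among colonies and the 5 largest interactions each way; further genes of the lists were chosen after their values were seen. The members and lists were chosen with earlier results of these data known. Single-gene results for a few list members are not reported here.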

Additional observations from a re-analysis of the deposited data

Results flagged for a closer look

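The change from macrophage to colony differed between the HPV-negative MEER and SCCVII models for 10 genes named by size, by the interaction test of edgeR, each at an adjusted p under 0.05. The log2 difference, HPV-negative minus SCCVII, was 14.63 for Elobl, 12.51 for Xist, 12.4 for Nid2, 11.69 for Ndnf and 9.91 for Chst1. It was -13.47 for Crabp1, -13.41 for Tshz3, -11.74 for Nid1, -11.56 for Cd248 and -11.42 for Mrc2. Where a group has no count, the fitted size depends on the prior count and is no bound. Xist rests on colony library 1, at 134 CPM against 0.409 and 0.271 in the other HPV-negative colonies.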

How the results depend on the processing

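Rises in HPV-negative colonies ranged from 3443 to 5727 genes, falls from 2103 to 5841 and all calls from 5546 to 11568 when each library was left out. Falls numbered 6129 with voom sample weights, and calls numbered 5577 against a 1.5-fold change, 2009 of them falls. The SCCVII calls ranged from 7086 to 11602 with a library left out. Interaction calls ranged from 2535 to 6949, with 1113 to 2992 higher and 1422 to 3957 lower, and DESeq2 gave 5904, of which 2838 were higher. The sign of Acod1 and Slc13a3, not called over all 3 colonies, depended on colony library 1. With a library left out, the log2 change ranged from -9.39 (without colony library 1) to 2.89 for Acod1 and from -10.08 to 2.12 for Slc13a3, and with voom sample weights it was -8.88 and -9.60. That weighted fit gave colony library 1 a weight of 0.0895, against 1.66 and 0.93 for libraries 2 and 3. No other gene named changed sign where either value was called, under the alternatives run. Marco, called in neither fit, moved from a log2 change of 10.56 to -1.71 without colony library 1. With a prior count of 2, none of the 140 named genes tested gained or lost a call. Calls were lost for up to 21 of them (replicate block), with 19 without macrophage library 1 and 15 without colony library 2. Calls were gained for up to 18 (voom sample weights). Of the interaction genes, 7 lost their call with the replicate block.

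The replicate numbers did not pair the libraries by the labels, and deviations of same-numbered colony and macrophage libraries correlated at 0.15 and -0.13. With the replicate block, 3246 genes were called in HPV-negative MEER (2410 higher, 836 lower), 5261 in SCCVII (2880 higher, 2381 lower) and 11 for the interaction (2 higher, 9 lower), with few residual degrees of freedom. Depth limits only genes near the floor, while 3 libraries a group limit the rest.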

Other observations

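The endothelial list and smaller lists of blood lineages had few tested genes over all 3 HPV-negative colony libraries, where 31.8% of all genes tested rose and 24.9% fell. The mast cell and basophil, eosinophil and erythroid lists had 2, 3 and 2 tested genes. Of 7 endothelial genes 1 rose (Plvap) and 2 fell, of 4 megakaryocyte genes 2 rose (Itga2b and Gp1bb) and 1 fell, with 5 endothelial and 2 megakaryocyte falls without colony library 1, and of 12 dendritic cell genes 2 rose (Fscn1 and Cd24a) and 7 fell. Of 10 monocyte genes Vcan rose and Nr4a1 fell, while 6 fell without colony library 1 and 5 rose and 3 fell with it alone. Ly6c1, one of the genes recognised by Gr1 antibodies and so of the sort gate, stood at 385, 632 and 635 CPM in the colonies against 0.518, 0.498 and 4.62 in the macrophages.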
